A study of Drosophila melanogaster with 55 samples.

Results

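HP1 was mapped by chromatin immunoprecipitation and sequencing (ChIP-seq) in heads of Drosophila melanogaster in which the topoisomerase Top3b was supplied in an altered or an intact form. The data are 3 lists of HP1-enriched regions, called islands, from 1 library each. In the Act-Top3bY332F line a Top3b26 mutant fly expressed the catalytic mutant Y332F, which per the study binds mRNA normally but has no topoisomerase activity. In the Act-Top3bdRGG line the same mutant background carried Top3b without its RGG box, which per the study binds mRNA much less and has decreased topoisomerase activity. In the Act-Top3bWT line, which both variants were set against, it carried wild-type Top3b. All 3 forms were UAS transgenes driven by actin-Gal4, a driver used for expression throughout the body, so that the endogenous gene was mutant in every one of these lines. Heads were pooled from adults of 1 to 2 weeks, and the sources used here do not give their sex. The same set holds 1 HP1 library from Top3b26 flies without a transgene and 1 from w1118, the control line, and 3 further HP1 libraries of Top3b26 and 3 of w1118, numbered replicates 1 to 3, stand outside this set.

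Islands with a score of at least 200 were kept on all chromosomes, following the minimum of the study. This left 7713 islands in Act-Top3bY332F, 5820 in Act-Top3bdRGG and 5267 in Act-Top3bWT, which are 18800 of the 153937 islands in the 33 lists of the series. Before this minimum the lists held 8205, 6517 and 5429 islands in the same order. An Act-Top3bWT island was called lost in a variant when less than 50% of its length lay inside islands of that variant, and a variant island was called gained when less than 50% of its length lay inside Act-Top3bWT islands. The score is a whole number written by the authors and the sources used here do not say what it counts. With 1 library per line there is no replicate check of any difference below and no test was made, and intervals cover the counting of islands only. Both variants were compared with the same Act-Top3bWT library, so anything particular to that library enters both comparisons.

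HP1 is a defining protein of heterochromatin. It binds histone H3 methylated on lysine 9 (H3K9me2 and H3K9me3), associates with itself, and coats the repeat-rich DNA around the centromeres, the small chromosome 4 and the Y chromosome, where it helps to keep transposable elements silent. It also occupies sites in gene-rich euchromatin, many of them at the starts of active genes. Top3b is a type IA topoisomerase that acts on RNA as well as DNA and works with the scaffold protein Tdrd3, and its catalytic tyrosine and its RNA-binding RGG box are the parts altered in the 2 variants.

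The 5 sequences below stand for the classes of loci that the results turn on, and are shown so that the kinds of DNA that lost or gained an island can be compared. They are read 5′ to 3′ from the Release 6 (dm6) genome, the build of the lists. The first lies at chr3R:262901-263200 and is the centre of a stretch that both variants lacked, and the next lies at chr3R:10551-10850 in a stretch that only dRGG lacked. Both are arrays of the dodeca satellite, a short tandem repeat of the centromeric region of chromosome 3, and capitals mark CCCGTACT or its reverse complement AGTACGGG. The sequence at chr3R:16206105-16206404, beside mtSSB, lies in a stretch gained in both variants, and that at chr3R:10079250-10079549, near mir-317, in a stretch gained in Y332F only. Capitals in these mark GAGAG or CTCTC, with overlapping matches merged, and each is the window of its stretch with the most matches. The sequence at chr2L:4939755-4939946 lies inside the coding exon of Sgs1 in a stretch gained in dRGG only, with ACTACTCC in capitals to mark the repeat unit. The other 4 overlap no annotated gene. These motifs were chosen after the values had been seen.
dodeca array lost in both: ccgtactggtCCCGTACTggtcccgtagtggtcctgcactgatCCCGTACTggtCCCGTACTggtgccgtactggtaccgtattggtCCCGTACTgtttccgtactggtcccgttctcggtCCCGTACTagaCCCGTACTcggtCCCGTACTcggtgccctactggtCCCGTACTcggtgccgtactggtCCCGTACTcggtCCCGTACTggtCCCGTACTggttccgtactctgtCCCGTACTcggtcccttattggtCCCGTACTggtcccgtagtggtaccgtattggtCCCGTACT
dodeca array lost in dRGG only: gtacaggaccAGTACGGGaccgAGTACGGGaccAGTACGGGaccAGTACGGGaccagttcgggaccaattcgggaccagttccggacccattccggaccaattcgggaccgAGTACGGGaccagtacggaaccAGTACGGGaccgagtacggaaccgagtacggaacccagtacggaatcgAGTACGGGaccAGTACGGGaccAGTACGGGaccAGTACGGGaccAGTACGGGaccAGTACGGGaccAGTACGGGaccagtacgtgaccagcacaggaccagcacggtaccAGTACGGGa
mtSSB stretch gained in both: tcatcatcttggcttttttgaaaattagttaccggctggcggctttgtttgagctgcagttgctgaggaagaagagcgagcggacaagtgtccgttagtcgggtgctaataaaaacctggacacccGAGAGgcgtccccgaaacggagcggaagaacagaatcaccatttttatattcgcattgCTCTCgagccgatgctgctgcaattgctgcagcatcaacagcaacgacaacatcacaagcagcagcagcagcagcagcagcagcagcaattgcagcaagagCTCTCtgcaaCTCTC
mir-317 stretch gained in Y332F only: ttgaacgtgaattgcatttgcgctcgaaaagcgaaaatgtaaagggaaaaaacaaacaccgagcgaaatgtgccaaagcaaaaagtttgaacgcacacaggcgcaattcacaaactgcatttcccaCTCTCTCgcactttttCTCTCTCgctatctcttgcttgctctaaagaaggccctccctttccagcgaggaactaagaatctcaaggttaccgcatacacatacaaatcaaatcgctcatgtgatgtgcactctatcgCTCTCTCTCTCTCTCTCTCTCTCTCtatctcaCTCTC
Sgs1 repeats gained in dRGG only: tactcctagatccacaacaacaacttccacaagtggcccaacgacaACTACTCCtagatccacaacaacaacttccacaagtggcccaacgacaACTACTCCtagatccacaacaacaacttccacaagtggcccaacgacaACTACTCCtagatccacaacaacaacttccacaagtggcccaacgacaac

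Islands covered less of the pericentric heterochromatin in both variant libraries than in Act-Top3bWT, and least in Y332F. With the limits the study set for pericentric heterochromatin of chromosomes 2 and 3, islands covered 52.8% of it in Act-Top3bY332F and 59.7% in Act-Top3bdRGG, against 67.8% in Act-Top3bWT. The differences from Act-Top3bWT were -15.0 percentage points for Y332F and -8.12 for dRGG. Top3b26 flies without a transgene had 65.0% and w1118 flies 72.1% in the same set, so that both variants lay below the mutant that carried no transgene. The order was the same on each arm. Coverage of pericentric 2L was 54.0% in Y332F and 62.9% in dRGG, against 70.7% in WT. That of pericentric 3R was 47.6% in Y332F and 53.4% in dRGG, against 61.9% in WT. The spread of the replicates outside the set gives a scale for these differences. Pericentric coverage was 48.3% to 68.7% in the 3 Top3b26 replicates (SD 11.6 points) and 57.3% to 59.7% in the 3 w1118 replicates (SD 1.23 points). All 3 transgene lines lay inside the range of the Top3b26 replicates, so that differences of this size also occurred between replicates of 1 line, while the w1118 replicates lay closer together than either variant and WT. In pooled heads, HP1 missing from some cells and less HP1 in every cell cannot be told apart. Scores were lower than in WT outside pericentric DNA too. At 972 euchromatic loci shared by the set, the median score per kb was 588.5 in Y332F and 547.2 in dRGG. It was 726.9 in WT, 848.2 in Top3b26 and 536.3 in w1118. At 1271 shared pericentric loci it was 411.2 in Y332F and 423.6 in dRGG, against 643.4 in WT. Whether a general difference between libraries lowered the coverage was not tested.

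**Figure D1:**
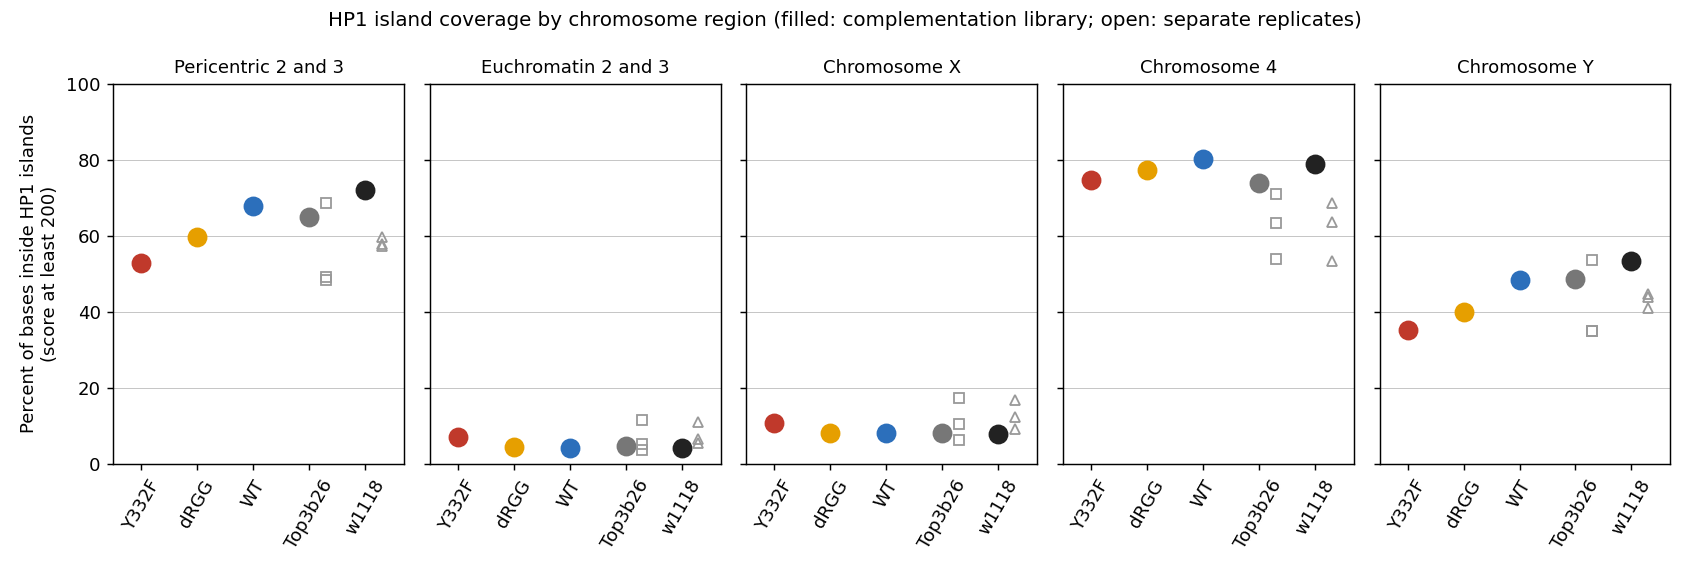
Percent of bases inside HP1 islands with a score of at least 200 (y axis) in 5 chromosome regions. Filled points are the complementation libraries, 1 per line (Act-Top3bY332F, Act-Top3bdRGG, Act-Top3bWT, Top3b26 and w1118), and open squares and triangles are the 3 Top3b26 and 3 w1118 replicates outside that set. In pericentric DNA Y332F is at 52.8% and dRGG at 59.7%, against 67.8% in WT, while in euchromatin Y332F stands above the other 4 filled points at 7.17%.

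The lower pericentric coverage was spread over the whole of the region. Of 152 pericentric windows of 100 kb, 152 were covered less in Y332F than in WT and none more, with a median difference of -14.1 points and a range of -58.9 to -0.3. In dRGG 149 windows were covered less, 2 more and 1 the same, with a median of -7.5 points and a range of -27.6 to 0.9. Y332F was below dRGG in 143 of the 152 windows and above it in 7. The window with the largest mean difference was 2L 22400001 to 22500000, where islands covered 30.3% of the bases in Y332F and 77.1% in dRGG, against 89.2% in WT, 88.3% in Top3b26 and 89.7% in w1118. Y332F was far below the other lines there, and dRGG was also below WT. The window with the smallest was 3L 26900001 to 27000000, with 15.7% in Y332F and 16.0% in dRGG, against 16.0% in WT. Windows next to each other share stretches of the same islands and are not replicates.

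**Figure D2:**
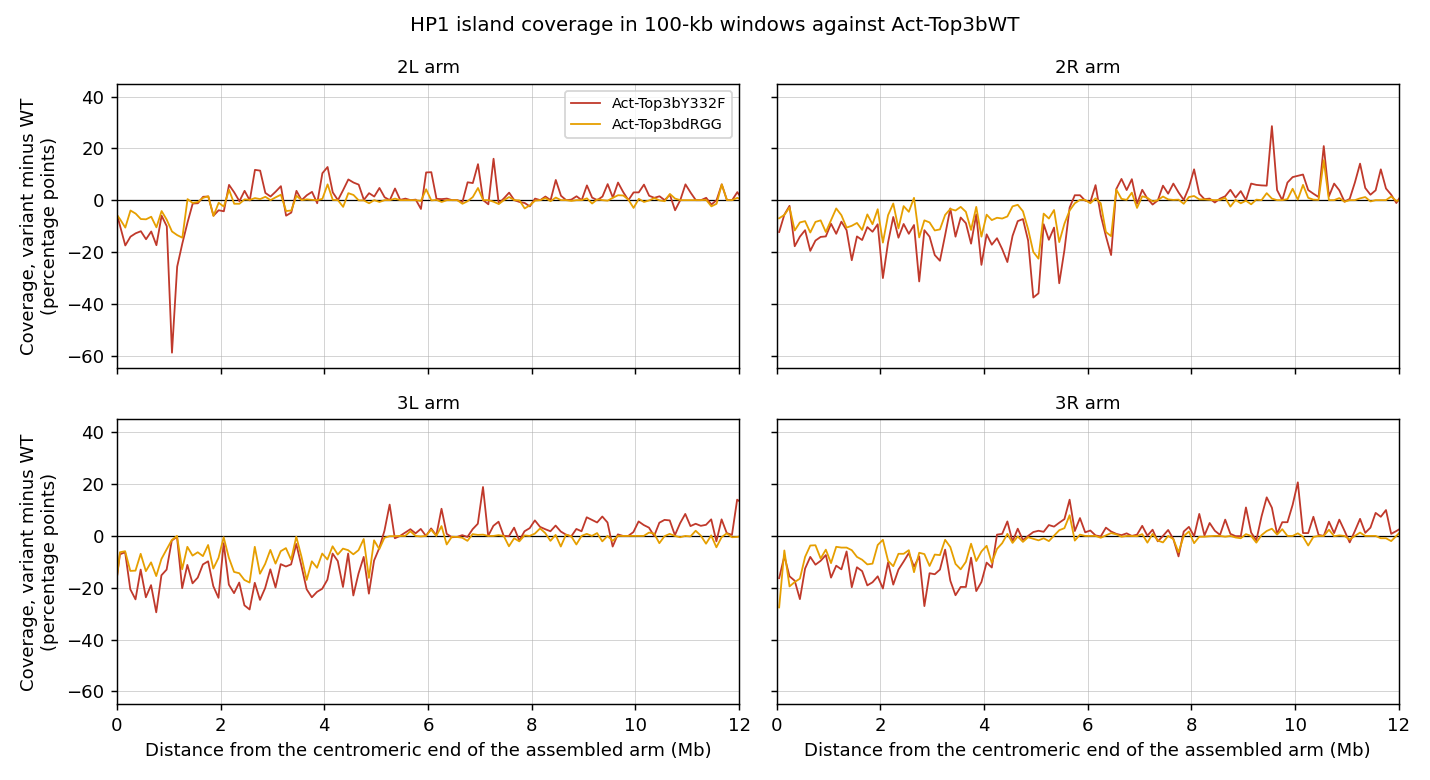
Difference in HP1 island coverage from Act-Top3bWT in 100-kb windows (y axis, percentage points) against distance from the centromeric end of each assembled arm of chromosomes 2 and 3 (x axis, Mb), with 1 line for Act-Top3bY332F and 1 for Act-Top3bdRGG. Both lines run below 0 in the pericentric part of every arm and Y332F lies lower, down to -58.9 points on 2L. Farther out Y332F is mostly above 0 while dRGG stays near it.

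Other heterochromatin showed the same order with different sizes. On the Y chromosome islands covered 35.3% in Y332F and 40.0% in dRGG, against 48.5% in WT, and 36 of 37 windows were lower in each variant. As the sex of the pooled flies is not given, a different share of males cannot be told apart from this. In the last 1.5 Mb of the X, its heterochromatic base, coverage was 33.3% in Y332F and 38.4% in dRGG, against 46.4% in WT. Chromosome 4, which is coated by HP1 along most of its length, differed little, with 74.8% in Y332F and 77.3% in dRGG, against 80.2% in WT. The 3 w1118 replicates spanned 53.5% to 68.5% there, a wider range than the 3 transgene lines. In the first 200 kb of the X, at its telomere, coverage was 41.8% in Y332F and 35.1% in dRGG, against 43.0% in WT, 35.6% in Top3b26 and 39.0% in w1118. Only dRGG was at the level of the mutant without a transgene.

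In euchromatin the variants parted. Islands covered 7.17% of euchromatic chromosomes 2 and 3 in Y332F and 4.50% in dRGG, against 4.38% in WT, 4.75% in Top3b26 and 4.18% in w1118. Of 940 euchromatic windows of 100 kb, 735 were covered more in Y332F than in WT and 110 less, whereas in dRGG 387 were covered more and 275 less. The X chromosome as a whole gave 10.9% in Y332F and 8.21% in dRGG, against 8.32% in WT. Replicates of a line differed by more than this, with 3.75% to 11.6% of euchromatin covered in Top3b26 and 5.65% to 11.1% in w1118. Over the whole genome the lists were of like size, with 14.2% of bases covered in Y332F and 12.8% in dRGG, against 13.9% in WT.

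Counted as islands, the same contrast appeared. Of the 5267 Act-Top3bWT islands, 1031 were lost in Y332F, which is 19.6% (95% Wilson interval 18.5 to 20.7), and 768 in dRGG, which is 14.6%. Among the 1751 pericentric islands, 417 were lost in Y332F (23.8%) and 226 in dRGG (12.9%). Among the 2025 euchromatic islands the counts were close, at 289 in Y332F (14.3%) and 302 in dRGG (14.9%). The Y chromosome lost the largest share, with 158 of 522 islands lost in Y332F (30.3%) and 87 in dRGG (16.7%). The share of males in each pool is not known and cannot be told apart from these Y values. On the X 157 of 887 islands were lost in Y332F (17.7%) and 142 in dRGG (16%), and on chromosome 4 10 of 82 in Y332F (12.2%) and 11 in dRGG (13.4%). Between replicates of w1118 the same measure gave 5.25% to 14.2% of pericentric islands and 11.2% to 60.4% of euchromatic islands over the 6 ordered pairs. Between replicates of Top3b26 it gave 0.141% to 32.0% of pericentric islands and 10.9% to 74.4% of euchromatic islands. The pericentric loss in dRGG was inside both ranges, and that in Y332F was above the w1118 range and inside the Top3b26 range. The size of the loss depended on the rule, since it was 38.6% in Y332F and 20.8% in dRGG over the 5267 highest-scoring islands of each list, and 32.9% in Y332F and 26.5% in dRGG where 80% of the length had to be covered. Lost islands were mostly absent rather than trimmed, since 755 of the 1031 lost in Y332F (73.2%) and 603 of the 768 lost in dRGG (78.5%) shared no base with an island of that variant.

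Gains ran the other way. Of the 7713 Act-Top3bY332F islands, 2525 were gained (32.7%), and of the 5820 Act-Top3bdRGG islands 636 were gained (10.9%). Pericentric gains were few, with 3 of 2014 islands in Y332F (0.149%) and 14 of 1982 in dRGG (0.706%). In euchromatin 1993 of 3821 Y332F islands (52.2%) and 434 of 2233 dRGG islands (19.4%) were gained, and on the X 526 of 1310 in Y332F (40.2%) and 182 of 974 in dRGG (18.7%). Both euchromatic shares lay inside the ranges between replicates of 1 line given above, 10.9% to 74.4% in Top3b26 and 11.2% to 60.4% in w1118. Chromosome 4 gained 3 of 116 islands in Y332F (2.59%) and 2 of 92 in dRGG (2.17%). The Y chromosome gained 0 of 452 in Y332F (0%, with an upper Wilson limit of 0.843%) and 4 of 539 in dRGG (0.742%). Near the minimum score the lists were not alike, since 390 islands in Y332F and 385 in dRGG, against 195 in WT, scored 200 to 249, and 339, 366 and 115 in the same order scored 150 to 199. The lowest score kept was 200 and the highest left out 199. At the 50% limit, 162 WT islands were covered by 50% to 60% in Y332F and 120 by 40% to 50%, and 145 and 80 in dRGG.

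**Figure D3:**
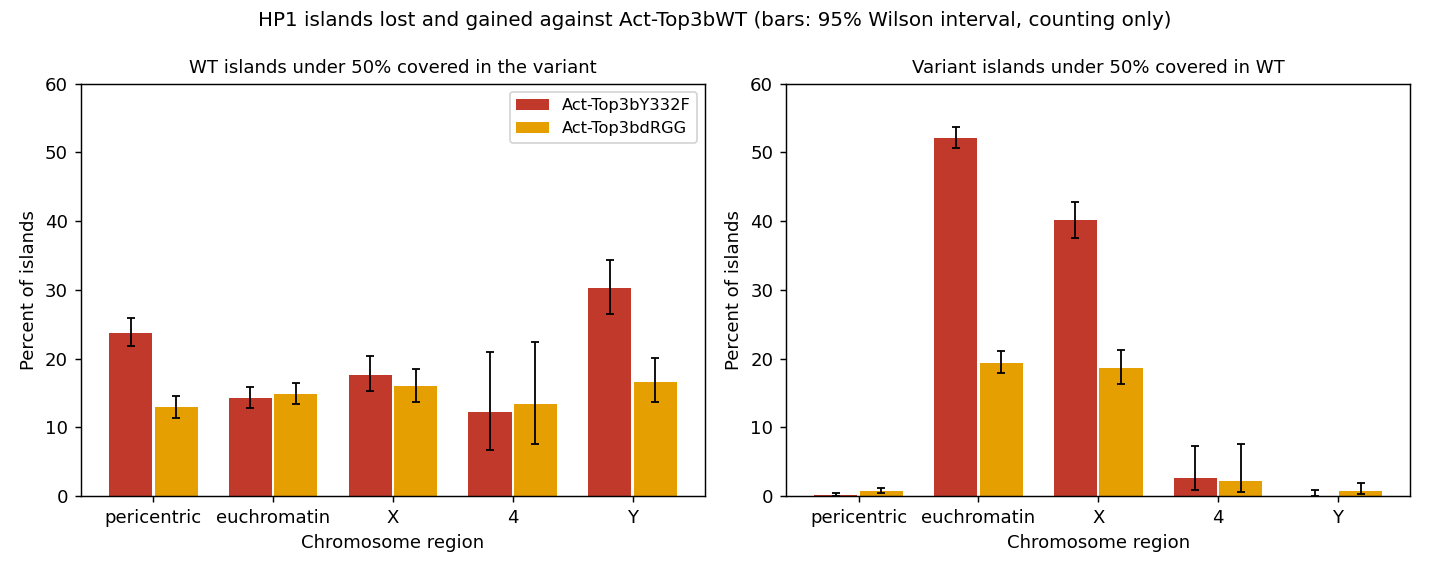
Left, percent of Act-Top3bWT islands under 50% covered in Act-Top3bY332F or Act-Top3bdRGG. Right, percent of each variant's islands under 50% covered in Act-Top3bWT. Bars are grouped by chromosome region, and error bars are 95% Wilson intervals for counting only, without any replicate. Loss in pericentric DNA is 23.8% for Y332F and 12.9% for dRGG, and gain in euchromatin is 52.2% for Y332F and 19.4% for dRGG.

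Loci that both variants lacked made up 519 of the 5267 Act-Top3bWT islands. Of these 197 were pericentric, 150 euchromatic, 93 on the X, 5 on chromosome 4 and 74 on the Y. A further 512 islands were lost in Y332F only, 220 of them pericentric, and 249 in dRGG only, of which 29 were pericentric and 152 euchromatic. The remaining 3987 were kept by both. The pericentric islands that both lacked were short and of low score, with a median length of 1700 bp and a median score of 600 in the WT list. Those lost in Y332F only had medians of 2000 bp and 758, and those kept in both 4000 bp and 2430. In length of DNA, both variants lacked 2063 kb that lay inside WT islands, of which 1134 kb was pericentric (11.2% of the pericentric WT length). Y332F alone lacked a further 1150 kb of pericentric DNA and dRGG alone 175.9 kb, and 75.7% of the whole WT length was kept in both. The loss was made of many small pieces. Joined across gaps of up to 600 bp, it gave 1404 pericentric stretches lost in both, of which 125 reached 2 kb and 2 reached 5 kb.

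Most of the pericentric islands lost in both were present in the Top3b26 and w1118 libraries of the set, and fewer in the replicates outside it. The Top3b26 library of the same set held 70.6% of them and the w1118 library 90.9%, where held means at least 50% of the length inside islands. Of the islands lost in Y332F only, Top3b26 held 78.6% and w1118 96.8%, and of those kept in both 97.4% and 100%. Outside the set the Top3b26 replicates held 15.2% to 65.0% of the islands lost in both and the w1118 replicates 35.5% to 55.3%. Of the kept islands they held 78.6% to 96.4% and 87.9% to 90.2%. H3K9 methylation marked a part of them, since the 3 w1118 H3K9me2 lists held 37.6% to 70.6% and the 3 H3K9me3 lists 33.5% to 64.5%. Without any minimum score, the Y332F list held 6.09% of the islands lost in both and the dRGG list 16.8%, so few of them were present as weak islands.

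The longest pericentric stretches that both variants lacked held no annotated gene. The longest was 2R 311201 to 316400, 5200 bp, which was covered by 0% in Y332F and dRGG, 100% in WT and Top3b26 and 86.5% in w1118, and by 84.6% to 100% in the w1118 replicates. The Top3b26 replicates outside the set had 23.1% to 100% there. The next, 3R 494601 to 499600, was covered by 100% in WT, 28.0% in Top3b26 and 82.0% in w1118, and by 0% to 82.0% in the w1118 replicates, so its presence varied among control libraries. It held 40 matches of the dodeca motif. The third, 3R 260601 to 265500, was the dodeca array printed first, with 258 matches of the motif in 4900 bp and 60.3% G and C. It lay wholly inside islands of WT, Top3b26, w1118 and all 3 w1118 replicates, and the Top3b26 replicates covered it by 59.2% to 100%. Outside pericentric DNA, the longest stretch lost in both was the 12900 bp at 2R 25241901 to 25254800, near the telomeric end of the arm, over CG9380, CG30429, Jhbp10 and CG30428. It was covered by 78.3% in Top3b26 and 100% in w1118. On the X the longest was 23288701 to 23293800 in ribosomal DNA, over mir-10404-4, 5.8SrRNA-Psi:CR45863 and 2SrRNA:CR45864. On chromosome 4 it was 2101 to 4600, over JYalpha, a sodium pump subunit gene, and on the Y 1577901 to 1581600, with no gene. The JYalpha stretch was at 4.0% in Top3b26 and 100% in w1118 of the set. Outside the set it was at 0% in every w1118 replicate and at 0% to 100% in those of Top3b26. The Y stretch was at 100% in Top3b26 and w1118 of the set. Its replicates had 0% to 37.8% in w1118 and 0% to 100% in Top3b26.

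A euchromatic stretch lost in both was missing from the lines without a transgene as well. At 3L 11613101 to 11619500, inside the mucin gene Muc68Ca, islands covered 100% in WT and 0% in Y332F, dRGG, Top3b26 and w1118, although all 6 replicates outside the set were at 100%. FLAG ChIP from untagged w1118 flies and every w1118 H3K9me2 and H3K9me3 list also covered it by 100%. Top3b ChIP from w1118 covered it by 100%, 54.7% and 100% in its replicates. The sequence there is a tandem repeat, with 98.2% of bases equal to the base 240 positions on.

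Among the stretches lost in Y332F only were transposable elements and DNA without annotation. The longest, 3L 23515101 to 23522900, was 7800 bp annotated wholly as transposable elements (HMS-Beagle, gypsy10 and GATE), and it was covered by 0% in Y332F, 100% in dRGG, WT, Top3b26 and w1118, and 100% in each w1118 replicate. The next, 2L 22435701 to 22442600 and 2L 22428801 to 22434800, lie side by side in the 100-kb window named above, hold no gene and no annotated element, and showed the same pattern. The 3 H3K9me3 lists of w1118 covered all 3 stretches by 100%. Over all pericentric islands, transposable elements made up 10.5% of the length of those lost in Y332F only, against 16.9% of those lost in both and 11.5% of those kept in both. In euchromatin the longest were 2R 7712001 to 7716600 over Dgat2, which makes triglycerides, and CG1946, and 2R 4578001 to 4582300, which borders the pericentric region. The X held 23489201 to 23493400, and the Y 1079601 to 1085700, both without a gene. On chromosome 4 the longest was 334501 to 338700 in PMCA, a plasma membrane calcium pump gene, which was covered by 73.8% in Top3b26 and w1118 and by 0% in all 6 replicates.

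In pericentric DNA few stretches were lost in dRGG only, and the longest was again dodeca satellite. At 3R 9001 to 12400, the sequence printed above, islands covered 100% in Y332F, 0% in dRGG and 100% in WT, Top3b26 and w1118, and the 3400 bp held 202 matches of the motif. FLAG ChIP from untagged w1118 flies covered 97.1% of this stretch. Of 365 pericentric stretches lost in dRGG only, 8 reached 2 kb, against 120 of 1386 lost in Y332F only. In euchromatin the total numbers were close, with 536 stretches lost in dRGG only and 523 in Y332F only, but those in Y332F were longer. Of them 11 in dRGG and 34 in Y332F reached 2 kb, and the DNA lost was 210.0 kb and 335.3 kb in the same order. The next longest pericentric stretches lost in dRGG only were 3L 23251401 to 23254100, in nAChRalpha4, an acetylcholine receptor subunit gene, and 3L 24476501 to 24479100. The euchromatic islands lost in dRGG only were unlike those lost in both. Their median length was 600 bp and their median score 331.5, 9.46% of their length was annotated as transposable elements, and 67.1% had their midpoint within 500 bp of a gene start. Of the length of euchromatic islands lost in both, 60.5% was transposable elements, and 22.7% of these islands lay near a gene start, against 43.5% and 52.9% for all euchromatic WT islands. The w1118 library of the set held 30.9% of the euchromatic islands lost in dRGG only and FLAG ChIP from untagged w1118 flies held 75.0% of them. The longest were 3L 19582401 to 19586400, over the potassium channel gene Shal with CG9231 and CG9330, and 2L 10276401 to 10279700, over the histone demethylase gene Utx and CG34043. In the set, the Shal stretch was at 0% in Top3b26 and w1118, and the Utx stretch at 0% in Top3b26 and 100% in w1118. Outside it, w1118 replicates covered the Shal stretch by 100%, while every replicate was at 0% over Utx. FLAG ChIP from untagged w1118 covered the Shal stretch by 82.5%. The X held 13932301 to 13937100 in mamo, a zinc finger gene, chromosome 4 500701 to 503000 in zfh2, and the Y 3509101 to 3511900. In the set, mamo was at 100% in Top3b26 and 0% in w1118, and zfh2 at 0% in Top3b26 and 100% in w1118.

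Dodeca satellite as a whole was covered least in dRGG, in contrast to the rest of pericentric DNA, where Y332F was lowest. There were 242 windows of 1 kb with at least 10 matches of the motif (0.176% of all windows), 241 of them on 3R and 231 within 500 kb of its centromeric end. Islands covered 23.2% of these windows in Y332F and 14.7% in dRGG, against 38.2% in WT, 62.1% in Top3b26 and 51.9% in w1118. The rest of the pericentric DNA was at 53.3% in Y332F and 60.4% in dRGG, against 68.3% in WT. The difference from WT was therefore -23.6 points for dRGG over dodeca and -7.86 elsewhere, and -15.0 points for Y332F in both. Of the 242 windows, 87 were covered less and 1 more in dRGG than in WT, and 60 less and 11 more in Y332F. The motif was chosen after the values had been seen, and the lost arrays printed above are part of these windows. The contrast is therefore a description of loci picked in part for their loss. Neighbouring windows share islands and are not replicates. Replicates differed widely over this repeat, with 37.3% to 73.3% in Top3b26 and 34.9% to 90.3% in w1118, and both variants lay below all 6. The H3K9me2 and H3K9me3 lists of w1118 covered 92.2% to 96.5% of the same windows. FLAG ChIP from untagged w1118 flies covered 26.2% of them, against 2.885% of the rest of the pericentric DNA. Top3b ChIP from w1118 covered 0%, 0.909% and 55.0% of them in its replicates. The part of such background in the dodeca values was not tested. Reads with more than 3 hits were dropped by the authors, so only the copies of the repeat that reads can be placed in are measured.

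Euchromatic gains were mostly at genes and in Y332F only. Of the 2525 islands gained in Y332F, 495 were also in dRGG and 2030 in Y332F only, and 1631 of these 2030 lay in euchromatin. From the dRGG side, 126 islands were gained in dRGG only. The euchromatic islands gained in Y332F only had a median length of 1200 bp and a median score of 500, 0.391% of their length was transposable elements, and 61.3% had their midpoint within 500 bp of a gene start. The 362 euchromatic islands gained in Y332F and also in dRGG were alike, with 0.944% transposable elements and 69.1% near a start. Lying near a start was not particular to the gains, since 56.3% of kept euchromatic islands and 52.9% of all euchromatic WT islands did so, against 15.8% of all euchromatic windows. Transposable elements made up 42.3% of the length of kept euchromatic islands and 4.71% of all euchromatic bases. Few gained sites carried H3K9 methylation. The w1118 H3K9me2 lists held 0.797% to 2.88% of the islands gained in Y332F only and the H3K9me3 lists 0.0613% to 0.613%, against 24.1% to 29.4% and 14.3% to 26.4% of all euchromatic WT islands.

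Other libraries had islands at the same sites. FLAG ChIP from w1118 flies, which have no FLAG tag, held 90.4% of the euchromatic islands gained in Y332F only and 91.2% of those also in dRGG, against 53.1% of all euchromatic WT islands. Among the HP1 replicates, replicate 2 of Top3b26 held 83.3% and replicate 2 of w1118 80.4% of the islands gained in Y332F only, while the other 4 held 11.6% to 36.7%. The Top3b26 library of the set held 23.2% and the w1118 library 2.88%. Top3b ChIP from w1118 held 26.1%, 40.8% and 2.45% of them in its 3 replicates. The part of the FLAG background in these gains was not tested.

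**Figure D4:**
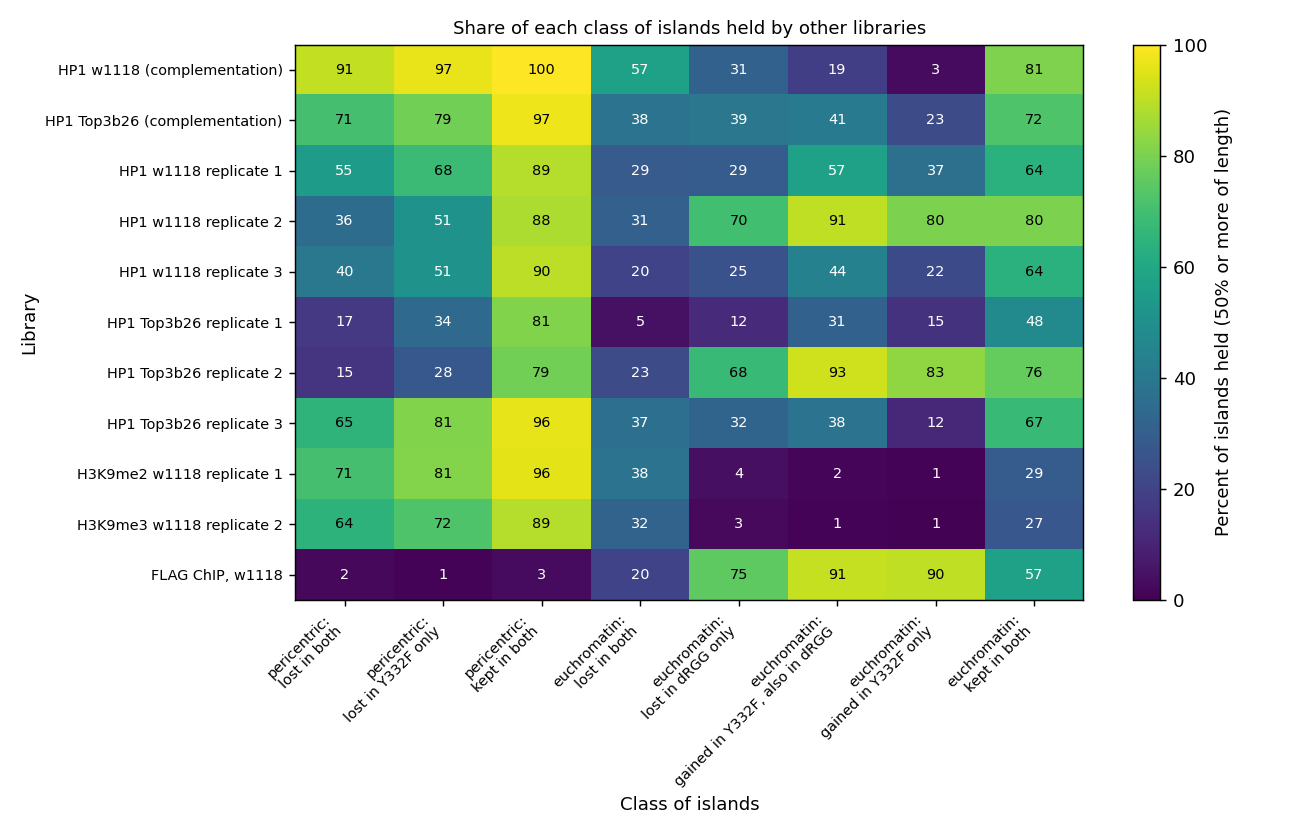
Percent of the islands of each class (columns) of which at least 50% of the length lay inside islands of another library (rows), written in each cell and shown by colour. Pericentric islands lost in both were held by 70.6% in Top3b26 and 90.9% in w1118 of the set. Euchromatic islands gained in Y332F only were held by 23.2% in Top3b26 and 2.88% in w1118 of the set, and by 90.4% in FLAG ChIP of untagged w1118.

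The longest gained stretches lay over genes or parts of genes. The longest gained in Y332F only was 18700 bp at 3R 10076701 to 10095400, over lncRNA:CR45054, mir-317 and lncRNA:CR43459, where Y332F was at 100% and dRGG, WT, Top3b26 and w1118 at 0%. Replicates 2 of w1118 and of Top3b26 were at 100% there and FLAG ChIP of w1118 at 95.2%, while w1118 replicate 1 was at 47.1% and the remaining 3 replicates at 0%. The next was 2R 9539901 to 9556800, over brp, which encodes the active zone protein Bruchpilot of synapses, CG1888, lncRNA:CR43651 and mir-14. On the X the longest was 3739201 to 3749500 in Tlk, a chromatin-associated kinase gene, and on chromosome 4 383901 to 386200 in an intron of dati. Gained in both were 3R 16204901 to 16215600, over CG31287, mtSSB (the mitochondrial single-strand DNA-binding protein) and 6 long non-coding RNA genes, and 2R 10551301 to 10560000 in psq, which encodes a DNA-binding protein of GA-rich repeats. The first was covered by 100% in Top3b26 and all 6 replicates and by 39.3% in w1118 of the set, so that WT stood apart there. On the X, 7965601 to 7970700 over sws and sn was gained in both. In pericentric DNA the stretches gained in both were no longer than 700 bp, among them pieces of introns of lovit and Myo81F.

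Islands gained in Y332F were rich in the letters GAGAG, the core of the site of the GAGA factor encoded by Trl. GAGAG or CTCTC was found in the central 300 bases of 692 of the 1631 euchromatic islands gained in Y332F only (42.4%), and of 35.9% of those also in dRGG, against 30.2% of kept euchromatic islands and 30.1% of all euchromatic windows of this length. Counted over whole islands there were 3.50 matches per kb in those gained in Y332F only and 3.18 in those also in dRGG, against 1.93 in kept islands and 1.51 in all windows. In euchromatic islands lost in both 34.0% had the motif and in those lost in Y332F only 35.25%, close to the share in gains also in dRGG, with 1.77 and 1.54 matches per kb. The sets compared differ in transposable elements and in nearness to gene starts, and no rate for gene starts alone was computed. The 18700 bp over mir-317 held 103 matches, as the run of CTCTC in its printed window shows. The 10700 bp over mtSSB held only 10, of which 4 lie in its printed window, fewer for its length than all euchromatic windows. The 8700 bp in psq, also gained in both, held 64.

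Stretches gained in dRGG only were short. In pericentric DNA the longest was 2L 22147001 to 22150700 in an intron of CG42748. In euchromatin they were 3R 5630001 to 5633800, over CG31551, CG31549 and CG12171, and 2L 4938101 to 4941600, over Sgs1, a salivary glue protein gene of larvae whose coding repeats are printed above. The first of these was not particular to dRGG. It was covered by 100% in Top3b26 and 65.8% in w1118 of the set, and by 89.5% to 100% in all 6 replicates. The w1118 H3K9me2 and H3K9me3 lists covered it by 94.7% to 100%. In Sgs1 82.8% of the gene was covered in dRGG and 0% in Y332F, WT and Top3b26, against 80.3% in w1118 of the set, and all 6 replicates had 69.7% to 82.8%. FLAG ChIP from untagged w1118 flies covered 100% of the Sgs1 stretch. The repeat is seen in 82.9% of bases equal to the base 96 positions on. Repeats also lay under the gains on the X, 2420301 to 2424800 (71.9% equal at 358 positions), and on chromosome 4, 1199501 to 1200700, in an intron of Mitf with 6.92% G and C and 84.6% of bases equal at 7 positions. Presence at such repeats differed between libraries of 1 line too, as between those of Top3b26 at Sgs1 and those of w1118 at Muc68Ca.

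Among genes, those with the most DNA lost in both variants were long genes of pericentric or Y DNA, apart from Ir41a, which lies beyond the pericentric limit of 2R. Myo81F, a myosin gene of 3R heterochromatin, had 48.7% of its length inside islands in Y332F and 55.1% in dRGG, against 61.9% in WT, 57.9% in Top3b26 and 65.1% in w1118, and lost 121400 bp in both. The Top3b26 replicates had 44.4% to 62.2% and the w1118 replicates 51.0% to 52.8%. For lovit, a transporter gene of photoreceptors, coverage was 58.7% in Y332F and 70.0% in dRGG, against 82.8% in WT, 71.8% in Top3b26 and 84.8% in w1118. Ir41a, an ionotropic receptor gene of olfactory neurons, had 40.4% in Y332F and 57.5% in dRGG, against 75.8% in WT, 67.9% in Top3b26 and 80.4% in w1118. Dbp80, a DEAD-box RNA helicase gene, had 48.5% in Y332F and 59.7% in dRGG, against 73.0% in WT. The other members of this group of 10 were Pzl, a mechanically gated channel gene, CG17684, DIP-lambda, l(3)80Fg and the Y-linked genes Ppr-Y and kl-3. Among the 3 transgene lines each of the 10 was lowest in Y332F and highest in WT. That WT was highest follows largely from the choice of genes by bases lost from WT islands. Snap25, whose product drives synaptic vesicle fusion, was added by the length lost in Y332F only, with 58.8% in Y332F and 69.6% in dRGG, against 78.5% in WT.

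By the length lost in dRGG only, the gene with the most outside pericentric and Y DNA was kdn, the citrate synthase gene of the X. It was covered by 76.6% in Y332F and 8.63% in dRGG, against 83.2% in WT, 39.5% in Top3b26 and 8.63% in w1118. The replicates had 8.63% to 100% in Top3b26 and 14.2% to 100% in w1118, so the dRGG value was not outside the other libraries.

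Outside heterochromatin, the genes with the most DNA gained in both were Trl, Atat, sn, tara and crol. Trl, the GAGA factor gene, had 46.9% of its length inside islands in Y332F and 46.9% in dRGG, against 0% in WT, Top3b26 and w1118. The replicates were not at 0, with 11.4% to 53.7% in Top3b26 and 51.4% to 55.3% in w1118. Atat, a tubulin acetyltransferase gene, had 50.6% in Y332F and 40.7% in dRGG, against 0% in WT, 56.7% in Top3b26 and 16.4% in w1118. The actin-bundling gene sn had 23.03% in Y332F and 22.6% in dRGG, against 0% in WT, and the zinc finger gene crol 34.0% in Y332F and 33.3% in dRGG, against 0% in WT. Replicates of w1118 had 14.2% to 53.15% at sn and 22.75% to 38.6% at crol, and those of Top3b26 0% to 51.8% and 0% to 38.6%. The gene tara had 87.5% in Y332F and 42.2% in dRGG, against 32.7% in WT. Gained in Y332F only were Tlk, siz, CG14434 and shn. CG14434 was covered by 85.7% in Y332F and 0% in dRGG, WT and Top3b26, against 9.77% in w1118, and shn, a zinc finger gene of BMP signalling, by 22.3% in Y332F and 0% in the other 4 libraries of the set. Replicates of w1118 outside the set had 21.55% to 56.2% at CG14434 and 5.99% to 38.4% at shn. Those of Top3b26 had 0% to 56.2% and 0% to 40.8% in the same order.

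The lists of heterochromatic genes were covered less in both variants and more so in Y332F. Among 12 heterochromatic genes of neurons and signalling, 11 were lower by at least 10 points in Y332F and 3 in dRGG, and none was higher, with median differences of -16.9 points in Y332F and -8.40 in dRGG. Over all 18277 annotated genes 1.71% were lower by that much in Y332F and 1.98% in dRGG, while 11.3% were higher in Y332F and 2.95% in dRGG. The gene p120ctn, of the cell adhesion complex, had 44.4% in Y332F and 70.5% in dRGG, against 81.7% in WT. The gene scro, a homeobox gene of the brain, had 35.8% in Y332F and 47.6% in dRGG, against 58.1% in WT. Of 17 heterochromatic housekeeping genes, 6 were lower by that much in Y332F and 4 in dRGG, with medians of -9.27 and -3.14 points. The ribosomal protein genes RpL15, RpL38 and RpS3A and the splicing factor gene Spf45 were at 100% in all 5 libraries, whereas rl, the MAP kinase gene, had 49.8% in Y332F and 61.4% in dRGG, against 67.6% in WT. Yeti went the other way, with 100% in Y332F and 59.2% in dRGG, against 59.2% in WT. Over all 3668 genes with any WT island, 312 were lower by at least 10 points in Y332F and 362 in dRGG, 464 and 175 were higher, and the median difference was 0 in each variant. These examples were picked after the values had been seen.

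Chromosome 4 genes differed less. Of 26 such genes, 5 were lower by at least 10 points in Y332F and 1 in dRGG, and the median difference was 0 for each variant. The gene bt, which encodes a titin-like muscle protein, had 42.0% in Y332F and 50.4% in dRGG, against 58.5% in WT. The homeobox gene zfh2 had 48.0% in Y332F and 45.2% in dRGG, against 61.9% in WT, and dati, a zinc finger gene, had 65.9% in Y332F and 46.9% in dRGG, against 52.4% in WT.

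Among genes of the silencing machinery more had an island in Y332F than in WT, as over all genes. Of 16 genes of HP1 and of H3K9 methylation, 11 had an island in Y332F and 9 in dRGG, against 7 in WT, and of all 18277 genes 6037 had one in Y332F and 3975 in dRGG, against 3668 in WT. None of the 16 was lower by 10 points in either variant, and 4 were higher in Y332F and 1 in dRGG, beside the 11.3% and 2.95% of all genes given above. The median difference was 0.69 points in Y332F and 0 in dRGG, and over all genes it was 0 in each. HP1b, a paralog of HP1, had 46.6% in Y332F and 14.1% in dRGG, against 20.1% in WT, and was at 0% in Top3b26, w1118 and all replicates outside the set. Kdm4B, a demethylase of H3K9, had 20.7% in Y332F and 20.2% in dRGG, against 0% in WT and w1118 and 23.9% in Top3b26. Its replicates had 10.6% to 48.8% in Top3b26 and 19.7% to 48.4% in w1118. The gene that encodes HP1 itself was at 0% in all 5 libraries. Of 16 genes of RNA interference and topoisomerases, 9 had an island in Y332F and 6 in dRGG, against 5 in WT. Among them 1 was lower in Y332F (piwi, at 42.6% in Y332F and 59.8% in dRGG, against 59.8% in WT), and 5 were higher in Y332F and 1 in dRGG. AGO2, the effector of small interfering RNAs, was at 38.8% in all 5 libraries.

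Genes whose sequence a transgene or driver can carry were looked at on their own. Top3beta was covered by 10.1% in Y332F and 17.9% in dRGG, against 0% in WT and Top3b26 and 4.93% in w1118. An HP1 island there says nothing of how much Top3b a line makes, so it does not check the labels. The eye pigment gene w was covered by 15.4% in Y332F and 0% in dRGG, against 12.0% in WT, and was at 0% in Top3b26, w1118 and all 6 replicates. Act5C, the actin gene whose promoter the driver takes its name from, had 95.6% in Y332F and 31.7% in dRGG, against 31.7% in WT and w1118 and 0% in Top3b26, with 49.4% to 100% in the 6 replicates.

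At chromosome ends the variants differed by gene. In the first 200 kb of the X, CG17636 was covered by 48.8% in Y332F and 100% in dRGG, against 100% in WT and w1118 and 65.9% in Top3b26. RhoGAP1A had 12.0% in Y332F and 16.7% in dRGG, against 16.7% in WT, tyn 9.45% in Y332F and 10.6% in dRGG, against 10.8% in WT, and lncRNA:CR40469 was at 100% in all 3 transgene lines. At the end of 3L, mthl8 was covered by 100% in Y332F and 71.7% in dRGG, against 100% in WT and Top3b26 and 37.95% in w1118, and Lsp1gamma, CG13405 and Pdk1 were at 0% in all 5 libraries.

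Transposable elements, the sequences HP1 is best known to silence, were covered less in both variants in most families. Of 62 families with at least 20 annotated copies, 57 were lower and 4 higher in Y332F than in WT, and 57 lower and 4 higher in dRGG. The median differences over the families were -5.50 points in Y332F and -3.24 in dRGG. Lower coverage was at least as widespread in pericentric DNA at large, where 152 of 152 windows were lower in Y332F and 149 in dRGG, with medians of -14.1 and -7.5 points in the same order. The largest drops were in gypsy, invader2 and BS. The retrovirus-like element gypsy had 35.0% of its annotated bases inside islands in Y332F and 51.8% in dRGG, against 88.6% in WT, 62.3% in Top3b26 and 90.7% in w1118. The Top3b26 replicates had 15.9% to 91.2% and the w1118 replicates 87.1% to 95.1%. For invader2 the values were 38.8% in Y332F and 59.5% in dRGG, against 82.5% in WT, 67.0% in Top3b26 and 88.9% in w1118. All 6 replicates were lower there than WT, at 24.2% to 48.8%. BS, a non-LTR element, had 41.1% in Y332F and 56.8% in dRGG, against 80.6% in WT, 72.4% in Top3b26 and 80.1% in w1118. Its replicates had 35.4% to 88.4% in Top3b26 and 46.2% to 87.1% in w1118, so Y332F was inside the Top3b26 range and dRGG inside both.

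**Figure D5:**
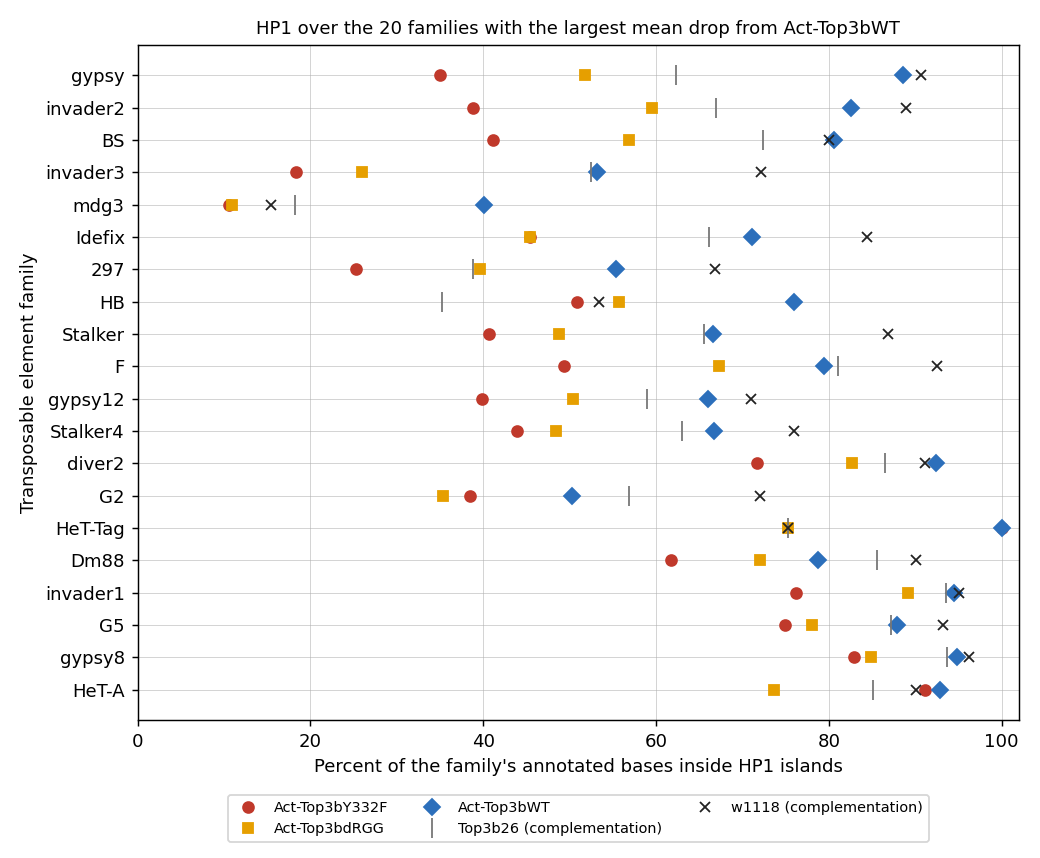
Percent of the annotated bases of a transposable element family inside HP1 islands (x axis) for the 20 families with the largest mean drop of the 2 variants from Act-Top3bWT (y axis, largest at the top), with 1 symbol for each library of the set. In most families Y332F is lowest and dRGG lies between it and WT, as in gypsy with 35.0% in Y332F and 51.8% in dRGG, against 88.6% in WT. In HeT-A, at the bottom, dRGG is lowest.

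Some families departed from this order, and they are named because of it. HeT-A, the retrotransposon that maintains telomeres in flies, had 91.1% in Y332F and 73.7% in dRGG, against 92.9% in WT, and 80.2% to 98.4% in the 6 replicates, so that dRGG alone was below them. In mdg3 both variants were close, with 10.6% in Y332F and 10.95% in dRGG, against 40.1% in WT. Top3b26 with 18.2% and w1118 with 15.5% were also low there, and WT stood apart. Abundant old elements hardly differed, with 1360 at 92.7% in Y332F and 93.3% in dRGG, against 94.5% in WT, and INE-1 at 76.2% in Y332F and 76.4% in dRGG, against 79.2% in WT. At the upper end of the mean difference were Tirant, baggins and jockey, of which only Tirant had a mean above 0, and none moved by as much as a point. Tirant was near 0 in every library, at 0.297% in Y332F and 0.245% in dRGG, against 0.245% in WT, baggins was at 99.6% in Y332F and 99.7% in dRGG, against 99.7% in WT, and jockey was at 5.75% in Y332F and 5.31% in dRGG, against 5.57% in WT. Because reads with more than 3 hits were dropped, families of near-identical copies are measured only where copies differ.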

How the data were processed

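HP1 ChIP-seq of fly heads was taken as deposited. Per the study's methods the authors mapped reads of 50 bases to dm6 with Bowtie (the submitters' processing notes list Bowtie2, with SAMtools 1.8 and bedtools), dropped reads with more than 3 hits, and called islands against input with SICER 1.1 (windows of 100 bp, gap of 600 bp, false discovery rate under 5%). Each deposited list gives island positions and a whole-number score from the authors. It remained unknown what the score counts, how it is scaled and how deeply each library was sequenced. Scores were therefore used only as a minimum (200), within lists and for the medians at shared loci. No counting error per island could be given. Input libraries were not used here.

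Coverage, losses and gains were computed on the 100-bp grid of the lists with Python 3.11.15, numpy 2.4.6 and pandas 2.3.3, and tested on simulated islands. Figures used matplotlib 3.10.9. Genes and transposable elements came from the BDGP6 Ensembl annotation and sequences from the RefSeq Release 6 genome. Of the listed genes, Parp and Thd1 were not matched. An island was placed by its midpoint. The members and lists were chosen with earlier results of these data known. Named were the 3 longest pericentric and 2 longest euchromatic stretches of each class and the longest on X, 4 and Y; the genes of at least 1 kb with the most bases in a class (10 lost in both, 5 otherwise); list genes that differed by 50 points (Act5C); Top3beta, w and genes of the X and 3L ends; and the 3 transposable element families at each end of the mean difference. Other names were added after seeing values. Alternatives were other minimum scores, other overlaps, lists of equal number, WT islands that w1118 holds, and chromosomes 2 and 3 alone.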

Additional observations from a re-analysis of the deposited data

How the results depend on the processing

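Of 51 alternatives 15 moved a value by less than its counting interval and 36 by more. A share of islands cannot change sign, so only the pericentric differences could turn round, and none did. Loss stayed larger in Y332F than in dRGG under every setting. Loss in Y332F (19.6%) was 22.97% with a minimum score of 400, 18.3% with no minimum in the variant's list, 14.3% where any shared base kept an island, 32.9% where 80% of the length was asked for and 38.6% with the 5267 highest-scoring islands of each list. Loss in dRGG (14.6%) was 12.1% with no minimum in any list, 21.6% with 400, 11.8% with none in the variant's list, 11.5% with any base, 26.5% with 80%, 20.8% with equal numbers and 11.2% among WT islands that w1118 holds. Loss in both (9.85%) was 8.11%, 15.7%, 7.92%, 7.46%, 19.4%, 18.1% and 8.79% under the same settings in the same order. Gain in Y332F (32.7%) was 34.5% with no minimum, 29.5% with 400, 31.4% with any base, 39.2% with 80%, 26.2% with equal numbers and 34.2% on chromosomes 2 and 3. Gain in dRGG (10.9%) was 15.1% with no minimum, 8.11% with 400, 10.1% with any base, 15.8% with 80% and 8.98% with equal numbers. Gain in both (6.42%) was 7.89% with no minimum, 4.94% with 400, 7.47% with none in the other list and 7.01% with 80%. The pericentric difference of Y332F (-15.0 points) was -17.2 with equal numbers, and that of dRGG (-8.12 points) was -9.58 with a minimum of 400. The causes of these shifts were not tested.

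No paired analysis was possible because each line had 1 library in this set. Unknown depth limits what the lists can show, since the 2 variant lists held more islands near the minimum score than the WT list. A difference of all variants from Act-Top3bWT and a peculiarity of the Act-Top3bWT library cannot be told apart.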
